A study of Mus musculus with 24 samples.

Results

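The genes described here are 40 genes of the cell cycle and of proliferation, chosen by name with earlier results of these data known. All 40 were found as 1 row each among the 54532 genes of the deposited expression table. They were measured by RNA sequencing of polyadenylated RNA in 2 fat depots of C57BL6 mice, the inguinal white fat pad (iWAT, under the skin) and the epididymal white fat pad (eWAT, in the abdomen). Each mouse carried an adeno-associated viral vector (AAV), either AAV-irisin or the control AAV-GFP, which encodes the green fluorescent protein, and was fed for 18 weeks on a high-fat diet (HFD) or on chow. Depot, vector and diet make 8 groups of 3 libraries: iWAT of irisin mice on HFD, iWAT of GFP mice on HFD, iWAT of irisin mice on chow, iWAT of GFP mice on chow, and the same 4 groups in eWAT. All the mice thus carried an AAV, and no group without a vector was analysed here. The labels give neither the age and sex of the mice, nor the promoter or target tissue of the vectors, nor whether replicate libraries are different animals. The p-values therefore measure only the spread between these libraries, which may be technical.

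A dividing cell commits to the cycle when cyclin E and the E2F transcription factors switch on the genes of DNA synthesis. It then copies its DNA with the Mcm helicase and the clamp Pcna, and enters mitosis when cyclins A and B activate the kinase Cdk1. The anaphase-promoting complex ends mitosis by marking the cyclins for destruction. Mature adipocytes have left the cycle, whereas progenitors, endothelial cells and immune cells of fat can divide, and resident macrophages of obese fat are known to proliferate in mice. In tissue RNA of this kind, a lower level can mean fewer dividing cells or less transcript in each, and these cannot be told apart.

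The reads recovered per library ranged from 14145644 to 19726771. The least covered of the genes was E2f8, with 2 reads in its lowest library, and none of the 40 was at 0 in any library. The depot labels fitted their marker genes, since the inguinal marker Tbx15 lay between 2.88 and 14.2 FPKM (fragments per kilobase of gene length, scaled to the depth of the library) in iWAT libraries and at 0.0896 FPKM or less in eWAT libraries. Fndc5, whose protein is cut to give irisin, ranged from 0.392 to 3.91 FPKM in irisin and from 0.163 to 0.258 FPKM in GFP libraries of iWAT on HFD, and from 1.04 to 4.94 FPKM in irisin and from 1.44 to 3.22 FPKM in GFP libraries of eWAT on HFD. On chow it ranged from 0.621 to 2.93 FPKM in irisin and from 0.157 to 0.735 FPKM in GFP libraries of iWAT, and from 0.456 to 1.4 FPKM in irisin and from 0.131 to 0.454 FPKM in GFP libraries of eWAT, so that irisin and GFP libraries overlapped in iWAT on chow and in eWAT on HFD. Some libraries held transcripts of other tissues. The 9 B cell markers summed to 505 FPKM in iWAT library 1 of the GFP HFD group and to 135 FPKM in eWAT library 1 of the GFP chow group, the muscle markers to 3617 FPKM in iWAT library 3 of the irisin chow group, and the epididymal markers to 4209 FPKM in eWAT library 3 of the GFP HFD group. The counts of called genes are given with and without these 4 libraries, and the genes whose call was lost without them are named.

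The cell cycle genes were low in chow-fed fat of both depots and highest in eWAT on HFD. The mean FPKM of the 40 genes summed to 89.6 in the irisin HFD group, 116 in the GFP HFD group, 65.6 in the irisin chow group and 64.6 in the GFP chow group of iWAT. In eWAT it summed to 167 in the irisin HFD group, 227 in the GFP HFD group, 69.9 in the irisin chow group and 79.9 in the GFP chow group. The eWAT GFP HFD group had the highest mean of the 8 groups for 37 of the 40 genes. The exceptions were Cdc45, which was highest in iWAT of irisin mice on HFD, Ccne1, highest in iWAT of GFP mice on HFD, and Mcm7, highest in eWAT of irisin mice on chow.

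**Figure D1:**
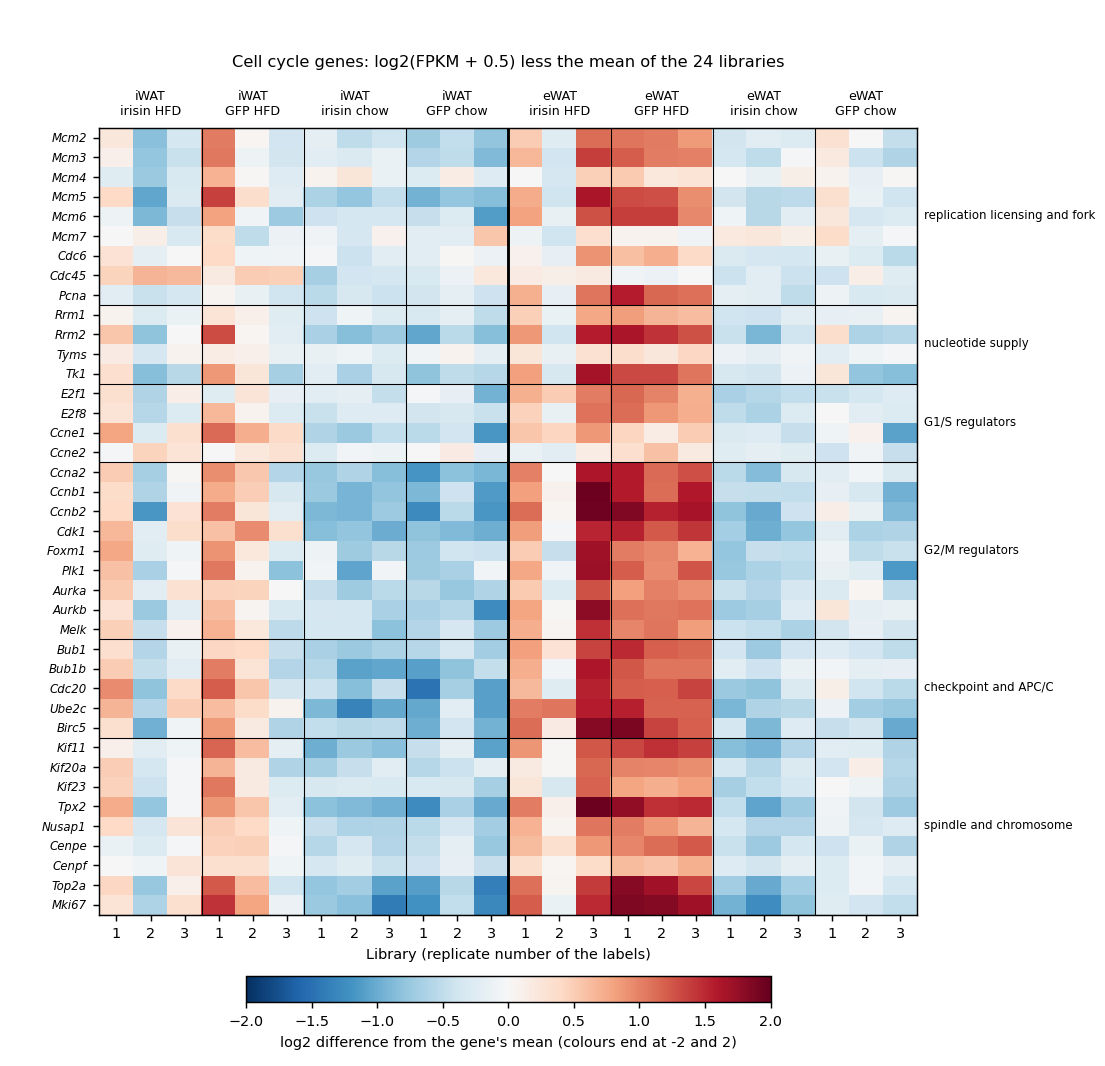
Level of each of the 40 genes (rows, grouped by role) in each of the 24 libraries (columns, with the replicate number of the labels), as log2(FPKM + 0.5) less the gene's mean over the 24 libraries; red is above and blue below that mean. The eWAT GFP HFD libraries and eWAT irisin HFD library 3 are red in nearly every row, eWAT irisin HFD library 2 is close to the mean, and Mcm7, Cdc45 and Tyms vary little or otherwise.

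Promoters of mitotic genes are known for the cell cycle homology region (CHR) and those of S phase genes for E2F sites. Shown are 5 promoters, 3 of mitotic and 2 of replication genes that were higher on HFD in eWAT of GFP mice. They are rich in the words marked below, with 5 in Mcm5 to 9 in Top2a over 200 bases. The windows of Birc5 and Nusap1, which were also higher there, held 0. Mouse promoter sequences were taken from RefSeq (GRCm38.p6), which matched 33 of the 40 genes with 34 promoters reaching from 250 bases before to 50 bases after the start. The windows below run from 200 bases before the start, 5′ to 3′ on the gene's strand, and stop short of any base inside the gene as the deposited table gives it. Capitals mark, on either strand, the CHR (TTTGAA or TTCGAA), the E2F core (TTCCCGC, and the variants TTGGCGC, also TTCGCGC, and finally TTGCCGC) and the CCAAT box (CCAAT).
Mki67, chr7:135716380-135716579, minus strand: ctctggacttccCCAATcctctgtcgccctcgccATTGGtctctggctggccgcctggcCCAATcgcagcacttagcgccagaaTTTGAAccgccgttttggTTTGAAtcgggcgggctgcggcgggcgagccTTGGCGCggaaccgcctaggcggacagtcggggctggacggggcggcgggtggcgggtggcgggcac
Cdk1, chr10:69352939-69353112, minus strand: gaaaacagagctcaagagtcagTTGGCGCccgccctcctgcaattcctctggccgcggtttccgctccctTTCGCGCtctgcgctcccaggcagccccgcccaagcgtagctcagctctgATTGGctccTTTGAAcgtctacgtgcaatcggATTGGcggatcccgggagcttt
Top2a, chr11:99024190-99024389, minus strand: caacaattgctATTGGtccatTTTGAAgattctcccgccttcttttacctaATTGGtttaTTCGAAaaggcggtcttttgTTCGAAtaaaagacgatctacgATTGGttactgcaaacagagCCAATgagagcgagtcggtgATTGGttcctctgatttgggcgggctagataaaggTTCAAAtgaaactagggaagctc
Mcm5, chr8:75109309-75109508, plus strand: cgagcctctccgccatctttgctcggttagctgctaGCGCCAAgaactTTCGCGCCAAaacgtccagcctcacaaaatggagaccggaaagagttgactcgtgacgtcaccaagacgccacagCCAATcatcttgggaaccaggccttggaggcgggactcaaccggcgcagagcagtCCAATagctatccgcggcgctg
Mcm6, chr1:128359706-128359905, minus strand: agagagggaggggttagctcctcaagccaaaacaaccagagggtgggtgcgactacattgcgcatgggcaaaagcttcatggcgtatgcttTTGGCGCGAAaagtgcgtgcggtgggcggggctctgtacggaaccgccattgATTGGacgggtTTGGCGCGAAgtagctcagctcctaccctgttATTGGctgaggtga

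The promoter windows of Mki67, Cdk1 and Top2a held CHR and CCAAT words, those of Mki67 and Cdk1 also E2F cores, and those of Mcm5 and Mcm6 held E2F cores and CCAAT words. Over all 34 promoters, 17 (50%) held a CHR, against 19.2% of all 32851 promoters of the reference table. A CHR lay within 50 bases of the start in 41.2% of the promoters of these genes, against 5.31% of all promoters. An E2F core was present in 35.3% against 9.57%, and a CCAAT box in 76.5% against 37.4%. By role, a CHR was found in 4 of 5 checkpoint promoters, 5 of 7 spindle promoters and 4 of 6 G2/M promoters, 1 of 3 G1/S promoters, 3 of 9 replication promoters and none of 4 nucleotide supply promoters. E2F cores were found in 6 of 9 replication promoters, 2 of 4 nucleotide supply promoters, 1 of 3 G1/S promoters, 2 of 6 G2/M promoters, 1 of 7 spindle promoters and 0 of 5 checkpoint promoters. No difference between the roles was tested. CCAAT boxes and E2F cores shared bases in 4 pairs, in Ccnb1, E2f8 and Mcm7. A match describes the letters of a window and does not show that a factor binds there.

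In iWAT few of the cell cycle genes passed the test of HFD against chow, although most had a fold change above 0. In irisin mice, 3 of the 36 genes tested (8.33%) passed the test, Ube2c, Cdk1 and Cdc45, all higher on HFD, against 9.01% of all 16125 genes in either direction and 4.82% higher. In GFP mice 2 of 36 (5.56%) passed, Cdk1 and Ccne1, both higher on HFD, against 2.37% of all genes in either direction and 1.44% higher. The test was limma's moderated test on log2(FPKM + 0.5) over the 4 groups of a depot, called at a Benjamini-Hochberg adjusted p under 0.05 over every gene that reached 0.5 FPKM in 3 or more libraries of the depot. Fold changes are on that scale and understate the change of low genes. The share in irisin mice thus lay near the background in either direction. The median log2 fold change of the 36 genes was 0.54 in irisin mice and 0.87 in GFP mice, beside -0.02 and 0.00 over all genes. In irisin mice 33 of the 36 genes lay above 0, against 48.7% of all genes, and 9 had an unadjusted p under 0.05, against 27.5%, which is near the background. In GFP mice 35 lay above 0, against 49.5%, and 23 had such a p, against 19.1%. Array weights, which give less weight to libraries that vary more, called 15 genes in irisin mice and 17 in GFP mice. The shares of all genes called with array weights are not given here, so these counts are not read as a result about these genes.

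These iWAT counts hung on single libraries. The count in irisin mice was 5 without irisin HFD library 2 and 1 without irisin HFD library 3 or any of the 3 irisin chow libraries. Of all genes, 1453 were called in irisin mice with every library, 819 without irisin HFD library 2 and 266 without irisin HFD library 3. In GFP mice the count was 8 without GFP HFD library 3, 7 without irisin HFD library 2, and 0 without GFP HFD library 2 or GFP chow library 1. It was 1 without irisin HFD library 3, irisin chow library 1 or 3, or GFP chow library 2 or 3. Of all genes, 382 were called in GFP mice with every library, 403 without GFP HFD library 3 and 499 without irisin HFD library 2. In the fits that gave 0, 0 of all genes were called. Without the 4 libraries with transcripts of other tissues, Cdc45 alone passed in irisin mice and Cdk1 alone in GFP mice. The shares of all genes called in that fit are not given here. Without library 1 of the GFP HFD group, the one with B cell transcripts, 1 gene passed in GFP mice, Cdk1, and the median log2 fold change was 0.57. In that library Mki67, Rrm2 and Top2a had their highest iWAT values, and it was the highest of its group for 35 of the 40 genes. The part of lymphoid cells in the iWAT values was not tested. Cdc6, E2f8, Cenpe and Cenpf fell under the filter in iWAT, and 7 further genes (Ccnb1, Cdk1, Melk, Bub1, Kif11, Kif23 and Tpx2) reached it through their HFD libraries, so that they could hardly have been tested without a difference. The other 29 met the filter on the chow libraries of the depot alone, and of these 2 passed the test in irisin mice and 1 in GFP mice.

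In eWAT the same genes were higher on HFD in nearly every role. In irisin mice 23 of 40 genes (57.5%) were called, all higher on HFD, against 17.4% of all 16274 genes in either direction and 9.47% higher. In GFP mice 35 of 40 (87.5%) were called, again all higher, against 26.5% of all genes in either direction and 14.7% higher. The median log2 fold change was 1.12 in irisin mice and 1.28 in GFP mice, while it was 0.00 over all genes with either vector. Every HFD library lay above every chow library for 29 of the genes in irisin mice, against 18.9% of all genes, and for 38 in GFP mice, against 22.9%. Both tests called 21 genes, that in irisin mice alone called Ccne1 and Cdc45, that in GFP mice alone called 14, and neither called Mcm4, Mcm7 and Tyms. These lists come from separate tests and do not show that the vectors differed.

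Of the 40 genes, 31 met the filter on the chow libraries of eWAT alone, and 17 of them were called in irisin mice and 26 in GFP mice. The other 9 (Cdc6, E2f8, Ccnb1, Melk, Bub1, Kif11, Kif23, Cenpe and Cenpf) reached it only through HFD libraries. Their calls for diet in eWAT are given as a description. In irisin mice the count was 11, 36 and 14 without irisin HFD libraries 1, 2 and 3, and 14, 11 and 14 without irisin chow libraries 1, 2 and 3. Of all genes, 2831 were called with every library, 1283, 4165 and 1923 without those HFD libraries, and 1574, 1225 and 1116 without those chow libraries. The count in irisin mice was 8 when only the groups compared entered the fit and 38 with array weights. The shares over all genes are given for neither fit, so these counts are not read as a result about these genes. In GFP mice it was 22 without library 1 of the GFP HFD group, with 2643 of all genes called, against 4310 with every library.

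Without the 4 libraries with transcripts of other tissues, 21 genes were called in eWAT of irisin mice and 25 in GFP mice. All of them were among those called with every library. The shares of all genes called in that fit are not given here. The change in the counts is therefore not read as a result about these genes. The calls lost in irisin mice were those of Pcna and E2f8. In GFP mice those of Mcm5, Cdc6, Rrm1, Foxm1, Aurka, Aurkb, Bub1b, Kif20a and Kif23 were lost, with limma adjusted p between 0.0544 for Cdc6 and 0.105 for Kif23, and Cenpf fell under the filter. The fold changes of the genes called in GFP mice differed from those with every library by -0.07 to 0.44 on the log2 scale, and the standard errors were larger, with 2 libraries left in each GFP group of eWAT. Of the 8 genes with the largest changes in GFP mice, the adjusted p without these libraries lay between 0.00752 for Ube2c and 0.0338 for Ccnb1. Ccnb1 met the filter only through HFD libraries, and its call is given as a description.

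**Figure D2:**
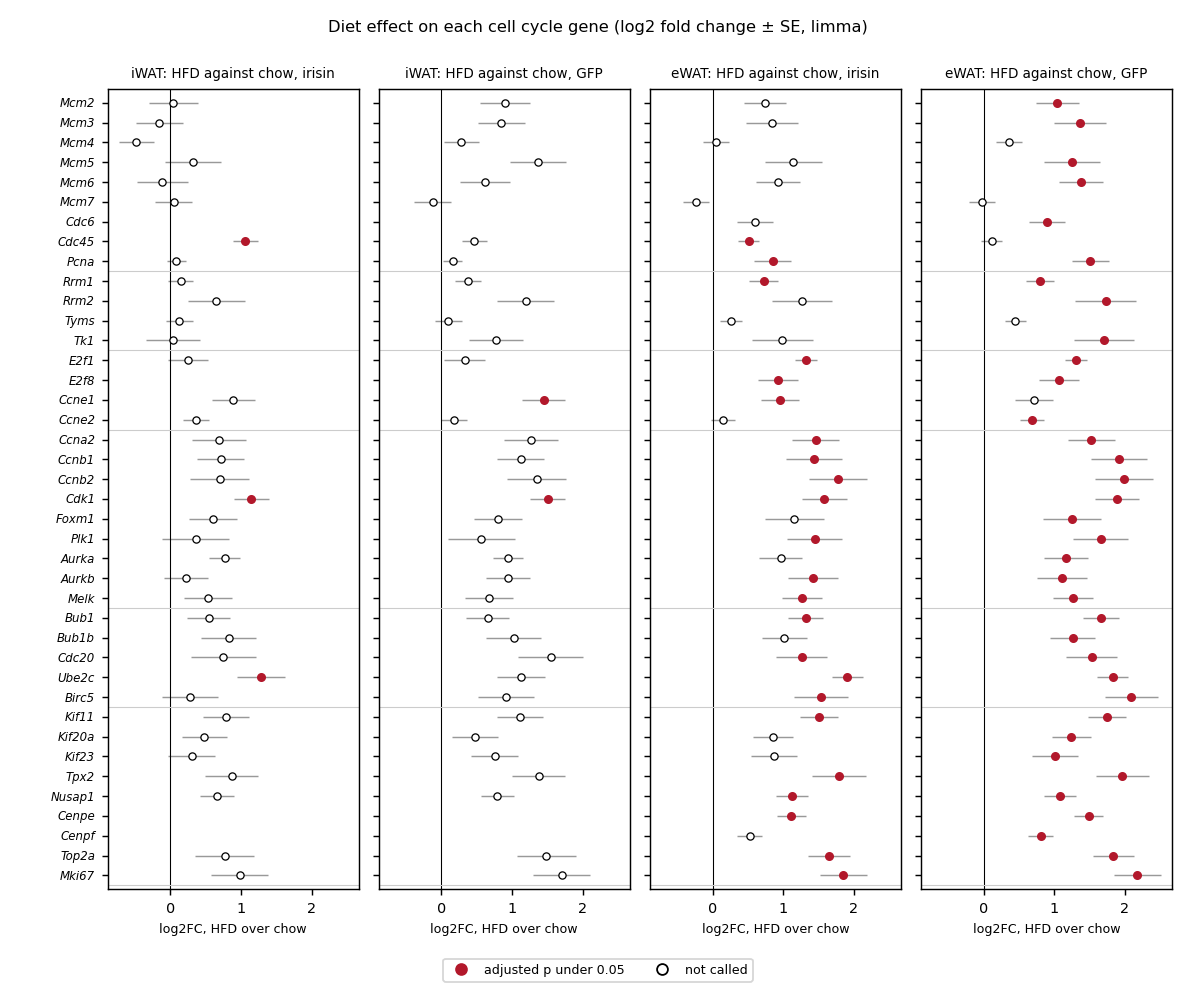
Log2 fold change of HFD over chow for each gene (points, with the standard error as a line) in iWAT and eWAT and with each vector; filled points passed limma's test at an adjusted p under 0.05 and 4 genes in iWAT were not tested. In iWAT 3 genes are filled in irisin mice and 2 in GFP mice, and in eWAT 23 in irisin mice and 35 in GFP mice.

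The mitotic kinases and cyclins were higher on HFD in eWAT. Of the 9 G2/M regulators, 7 were called in irisin mice (median log2 fold change 1.43) and all 9 in GFP mice (median 1.52), against 17.4% and 26.5% of all genes. Of the 7 that met the filter on chow libraries alone 5 and 7 were called. Foxm1, a transcription factor of mitotic genes (1.16 in irisin and 1.25 in GFP mice), and the spindle pole kinase Aurka (0.96 and 1.16) were not called in irisin mice. Ccnb2, a B-type cyclin that partners Cdk1, was the most abundant of them. In iWAT, Ccnb2 had 3.29, 0.783 and 2.98 FPKM in the irisin HFD libraries, 5.32, 2.9 and 1.95 FPKM in the GFP HFD libraries, 1.03, 0.995 and 1.24 FPKM in the irisin chow libraries and 0.681, 1.47 and 0.771 FPKM in the GFP chow libraries. The irisin HFD libraries overlapped the irisin chow libraries, through library 2, and the GFP HFD libraries lay above their chow libraries. In eWAT, Ccnb2 had 5.68, 2.44 and 10.5 FPKM in the irisin HFD libraries, 9.78, 7.79 and 8.48 FPKM in the GFP HFD libraries, 1.14, 0.917 and 1.64 FPKM in the irisin chow libraries and 2.63, 2.07 and 1.05 FPKM in the GFP chow libraries. Every HFD library lay above every chow library of its vector, by 1.78 ± 0.41 (log2 fold change ± SE, limma adjusted p = 0.0161) in irisin mice and 1.98 ± 0.41 (adjusted p = 0.00605) in GFP mice.

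Cdk1, the kinase that drives entry into mitosis, was called in eWAT with both vectors, and its promoter is shown above. In iWAT, Cdk1 had 2.02, 0.866 and 1.51 FPKM in the irisin HFD libraries, 1.88, 2.55 and 1.48 FPKM in the GFP HFD libraries, 0.376, 0.42 and 0.295 FPKM in the irisin chow libraries and 0.412, 0.36 and 0.302 FPKM in the GFP chow libraries. Every HFD library lay above every chow library, and the 6 chow libraries were all under 0.5 FPKM, so that Cdk1 was tested in iWAT only because of its HFD libraries and its calls there are given as a description. The log2 fold change in iWAT was 1.15 ± 0.25 in irisin mice (limma adjusted p = 0.0196) and 1.5 ± 0.25 in GFP mice (adjusted p = 0.0149). In eWAT, Cdk1 had 2.33, 1.05 and 4.05 FPKM in the irisin HFD libraries, 4.11, 3.22 and 3.79 FPKM in the GFP HFD libraries, 0.486, 0.306 and 0.431 FPKM in the irisin chow libraries and 0.856, 0.526 and 0.545 FPKM in the GFP chow libraries. The HFD libraries again lay above all chow libraries, with log2 fold changes of 1.58 ± 0.31 in irisin mice (adjusted p = 0.00909) and 1.89 ± 0.31 in GFP mice (adjusted p = 0.0024). The iWAT call of Cdk1 was lost in irisin mice without the 4 libraries with other transcripts (adjusted p = 0.058) and without irisin HFD library 3 or any of the irisin chow libraries, and in GFP mice without GFP HFD library 2 (0.0702) or GFP chow library 1 (0.0649).

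Plk1 is a kinase of centrosomes and spindles. In iWAT, Plk1 had 2.44, 0.75 and 1.42 FPKM in the irisin HFD libraries, 3.54, 1.55 and 0.605 FPKM in the GFP HFD libraries, 1.37, 0.444 and 1.38 FPKM in the irisin chow libraries and 0.699, 0.753 and 1.39 FPKM in the GFP chow libraries. HFD and chow libraries of iWAT overlapped with both vectors. In eWAT, Plk1 had 2.83, 1.37 and 5.92 FPKM in the irisin HFD libraries, 4.04, 3.25 and 4.2 FPKM in the GFP HFD libraries, 0.655, 0.761 and 0.85 FPKM in the irisin chow libraries and 1.26, 1.15 and 0.381 FPKM in the GFP chow libraries. No HFD library of eWAT overlapped the chow libraries of its vector, and the log2 fold change was 1.45 ± 0.39 in irisin mice (limma adjusted p = 0.0285) and 1.66 ± 0.39 in GFP mice (adjusted p = 0.0107). Of the other G2/M genes in eWAT, Ccnb1 (cyclin B) changed by 1.43 and 1.92 on the log2 scale in irisin and in GFP mice, Ccna2 (cyclin A) by 1.46 and 1.52, Aurkb, the kinase of the chromosomal passenger complex, by 1.42 and 1.11, and the kinase Melk by 1.26 with each vector.

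Checkpoint genes and genes of the anaphase-promoting complex were higher on HFD in eWAT. There 4 of 5 were called in irisin mice and 5 of 5 in GFP mice, against 17.4% and 26.5% of all genes. Without Bub1, which met the filter only through HFD libraries, 3 and 4 of 4 were called. Ube2c, the ubiquitin-conjugating enzyme that works with the anaphase-promoting complex, was called in 3 of the 4 comparisons of diet. In iWAT, Ube2c had 3.9, 1.33 and 3.36 FPKM in the irisin HFD libraries, 3.68, 3.05 and 2.38 FPKM in the GFP HFD libraries, 0.977, 0.586 and 0.851 FPKM in the irisin chow libraries and 0.844, 1.84 and 0.789 FPKM in the GFP chow libraries. Irisin library 2 on HFD lay above the irisin chow libraries but below GFP library 2 on chow. The log2 fold change in iWAT was 1.28 ± 0.34 in irisin mice (limma adjusted p = 0.0415), and in GFP mice Ube2c was not called, although every HFD library lay above every chow library. The call in irisin mice was lost without each of 8 libraries in turn, with adjusted p from 0.0516 without GFP HFD library 3 to 0.152 without irisin HFD library 3. In eWAT, Ube2c had 5.04, 5.22 and 7.63 FPKM in the irisin HFD libraries, 7.56, 5.71 and 5.68 FPKM in the GFP HFD libraries, 0.946, 1.31 and 1.36 FPKM in the irisin chow libraries and 2.03, 1.19 and 1.13 FPKM in the GFP chow libraries. No HFD library fell under 5 FPKM and no chow library rose above 2.03 FPKM. The log2 fold changes in eWAT were 1.91 ± 0.22 in irisin mice (adjusted p = 0.000999) and 1.82 ± 0.22 in GFP mice (adjusted p = 0.000732).

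Cdc20 is the activator of the same complex. In iWAT, Cdc20 had 4.41, 0.963 and 2.8 FPKM in the irisin HFD libraries, 5.37, 3.24 and 1.48 FPKM in the GFP HFD libraries, 1.4, 0.914 and 1.35 FPKM in the irisin chow libraries and 0.411, 1.11 and 0.699 FPKM in the GFP chow libraries. Here the irisin HFD and chow libraries overlapped, and the GFP HFD libraries lay above GFP chow, a difference that was not called. In eWAT, Cdc20 had 3.49, 1.65 and 6.9 FPKM in the irisin HFD libraries, 5.38, 5.36 and 5.99 FPKM in the GFP HFD libraries, 1.03, 0.954 and 1.59 FPKM in the irisin chow libraries and 2.26, 1.43 and 1.25 FPKM in the GFP chow libraries. The eWAT difference was 1.26 ± 0.36 in irisin mice (limma adjusted p = 0.0377) and 1.53 ± 0.36 in GFP mice (adjusted p = 0.0114). Birc5 (survivin), a passenger protein that guards chromosome attachment, changed by 1.53 ± 0.38 in irisin mice and 2.09 ± 0.38 in GFP mice, and the kinetochore kinase Bub1 by 1.32 ± 0.25 and 1.66 ± 0.25. Bub1b (BubR1), its partner in the spindle checkpoint, was not called in irisin mice (1.01 ± 0.32, adjusted p = 0.0511) and was called in GFP mice (1.26 ± 0.32).

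Among the spindle and chromosome genes, 6 of 9 were called in eWAT of irisin mice and 9 of 9 in GFP mice, against 17.4% and 26.5% of all genes. Kif11, Kif23, Cenpe and Cenpf met the filter only through HFD libraries, and of the other 5 genes 4 were called in irisin mice and 5 in GFP mice. Mki67, the proliferation antigen Ki-67 that coats mitotic chromosomes, had the highest fold change of all 40 genes in eWAT of GFP mice. In iWAT, Mki67 had 2.3, 1.02 and 2.4 FPKM in the irisin HFD libraries, 5.83, 3.54 and 1.64 FPKM in the GFP HFD libraries, 0.894, 0.806 and 0.383 FPKM in the irisin chow libraries and 0.507, 1.15 and 0.457 FPKM in the GFP chow libraries. In iWAT the HFD libraries lay above the chow libraries of the same vector, with no overlap, yet the log2 fold changes of 0.98 ± 0.41 in irisin mice and 1.70 ± 0.41 in GFP mice were not called (limma adjusted p = 0.147 and 0.056). In eWAT, Mki67 had 4.87, 1.61 and 6.01 FPKM in the irisin HFD libraries, 8.01, 7.83 and 7.05 FPKM in the GFP HFD libraries, 0.71, 0.483 and 0.833 FPKM in the irisin chow libraries and 1.48, 1.29 and 1.16 FPKM in the GFP chow libraries. HFD and chow libraries of eWAT did not overlap, and irisin library 2 came closest to the chow range. The log2 fold change was 1.85 ± 0.33 in irisin mice (adjusted p = 0.00644) and 2.17 ± 0.33 in GFP mice (adjusted p = 0.00182).

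Top2a is the topoisomerase that untangles sister chromatids. In iWAT, Top2a had 2.18, 0.698 and 1.68 FPKM in the irisin HFD libraries, 4.22, 2.6 and 1.03 FPKM in the GFP HFD libraries, 0.685, 0.744 and 0.463 FPKM in the irisin chow libraries and 0.445, 0.879 and 0.283 FPKM in the GFP chow libraries. Irisin HFD library 2 lay within the irisin chow range, the GFP HFD libraries lay above theirs, and neither difference was called. In eWAT, Top2a had 3.83, 1.6 and 4.83 FPKM in the irisin HFD libraries, 6.65, 5.96 and 4.57 FPKM in the GFP HFD libraries, 0.746, 0.509 and 0.758 FPKM in the irisin chow libraries and 1.18, 1.45 and 1.08 FPKM in the GFP chow libraries. In eWAT the HFD libraries lay above the chow libraries by 1.65 ± 0.29 in irisin mice (limma adjusted p = 0.00607) and 1.83 ± 0.29 in GFP mice (adjusted p = 0.00206). Tpx2, which builds spindle microtubules with Aurka, changed by 1.79 ± 0.38 in irisin and 1.96 ± 0.38 in GFP mice, and the spindle motor Kif11 by 1.5 ± 0.27 and 1.74 ± 0.27. The kinetochore motor Cenpe changed by 1.11 ± 0.20 and 1.49 ± 0.20, and the microtubule-bundling protein Nusap1 by 1.12 ± 0.23 and 1.08 ± 0.23. Kif20a (0.86 in irisin and 1.24 in GFP mice) and Kif23 (0.87 and 1.0), motors of the spindle midzone, and the kinetochore protein Cenpf (0.53 and 0.81) were called in GFP mice alone.

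**Figure D3:**
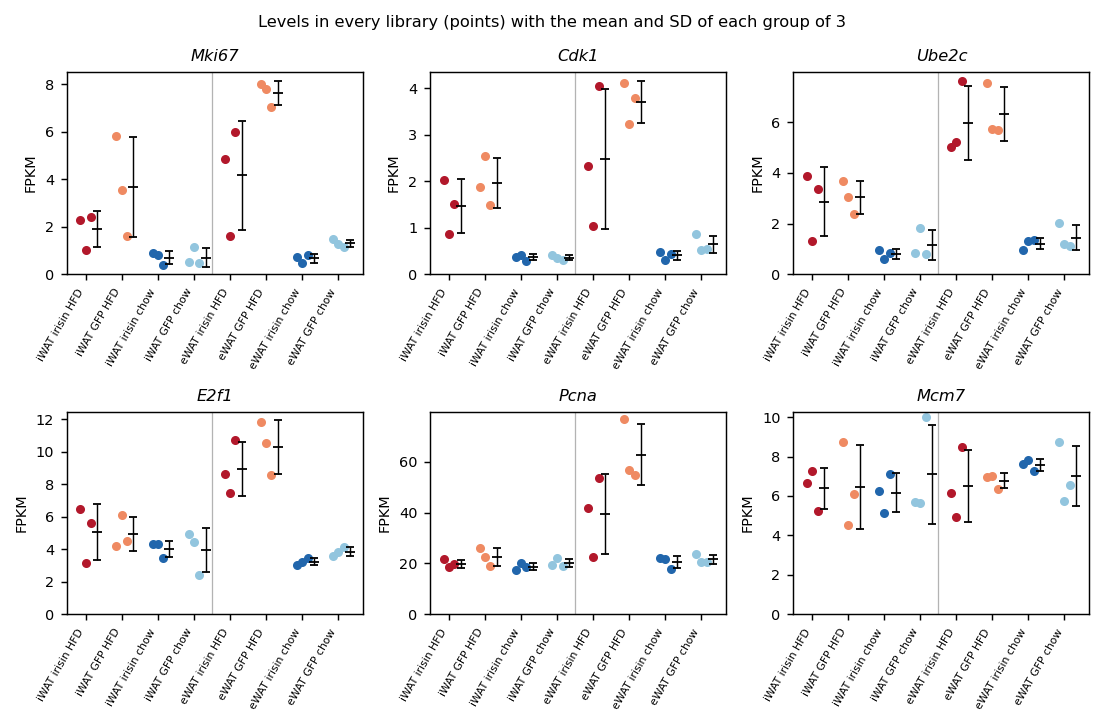
FPKM of 6 genes in each library (points) with the mean and SD of each group of 3 (bars beside them), iWAT on the left and eWAT on the right of each panel. The HFD libraries of Mki67, Cdk1 and Ube2c lie above the chow libraries of the same vector in both depots, those of E2f1 and Pcna in eWAT with both vectors but in iWAT with neither, and those of Mcm7 nowhere.

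The S phase genes were less uniform. Of the 9 replication genes, 2 (22.2%) were called in eWAT of irisin mice, Pcna and Cdc45, near the 17.4% of all genes called there. In GFP mice 6 (66.7%) were called, against 26.5% of all genes, and 5 of the 8 that met the filter on chow libraries alone. Pcna, the sliding clamp of DNA polymerase, had the highest level of the 40 genes on the FPKM scale. In iWAT, Pcna had 21.6, 18.5 and 19.8 FPKM in the irisin HFD libraries, 26.2, 22.7 and 19.2 FPKM in the GFP HFD libraries, 17.3, 20.3 and 18.7 FPKM in the irisin chow libraries and 19.5, 22 and 19 FPKM in the GFP chow libraries. All iWAT libraries lay between 17.3 and 26.2 FPKM, and no diet effect was called there. In eWAT, Pcna had 41.6, 22.5 and 53.8 FPKM in the irisin HFD libraries, 76.7, 56.6 and 54.9 FPKM in the GFP HFD libraries, 22, 21.6 and 17.7 FPKM in the irisin chow libraries and 23.6, 20.4 and 20.6 FPKM in the GFP chow libraries. In eWAT every HFD library lay above every chow library of its vector, by 0.85 ± 0.26 in irisin mice (limma adjusted p = 0.0478) and 1.51 ± 0.26 in GFP mice (adjusted p = 0.00278), while irisin HFD library 2 lay below GFP chow library 1.

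The Mcm proteins form the ring-shaped helicase that opens DNA, yet not all of their transcripts were called. For Mcm2, Mcm3, Mcm5 and Mcm6 the log2 fold changes in eWAT were 0.74, 0.84, 1.14 and 0.93 in irisin mice, where none was called, and 1.04 ± 0.30, 1.36 ± 0.37, 1.25 ± 0.40 and 1.38 ± 0.31 in GFP mice, where all 4 were. Mcm4 had 0.05 ± 0.19 in irisin mice and 0.36 ± 0.19 in GFP mice, with no call. Mcm7 was the most abundant of the ring. In iWAT, Mcm7 had 6.65, 7.26 and 5.25 FPKM in the irisin HFD libraries, 8.75, 4.54 and 6.1 FPKM in the GFP HFD libraries, 6.27, 5.12 and 7.1 FPKM in the irisin chow libraries and 5.68, 5.64 and 9.99 FPKM in the GFP chow libraries. In eWAT, Mcm7 had 6.15, 4.92 and 8.5 FPKM in the irisin HFD libraries, 6.97, 7.03 and 6.33 FPKM in the GFP HFD libraries, 7.65, 7.84 and 7.27 FPKM in the irisin chow libraries and 8.73, 5.77 and 6.54 FPKM in the GFP chow libraries. HFD and chow libraries of Mcm7 overlapped in both depots with both vectors, and its log2 fold change in eWAT was -0.23 ± 0.19 in irisin mice and -0.03 ± 0.19 in GFP mice (limma adjusted p = 0.412 and 0.932). Mcm7 overlaps Cops6 by 64 bases and Ap4m1 by 421 bases on the other strand. Cops6 reached 51.9 FPKM, and with strandedness not given, reads of the shared bases cannot be told apart.

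Cdc45, which joins the Mcm ring to make the active helicase, was the one replication gene called in iWAT. In iWAT, Cdc45 had 3.34, 4.0 and 3.93 FPKM in the irisin HFD libraries, 2.69, 3.51 and 3.42 FPKM in the GFP HFD libraries, 1.27, 1.65 and 1.71 FPKM in the irisin chow libraries and 1.77, 2.09 and 2.75 FPKM in the GFP chow libraries. The irisin HFD libraries lay above all irisin chow libraries, by 1.06 ± 0.18 (limma adjusted p = 0.00844), and the difference of 0.46 ± 0.18 in GFP mice was not called. In eWAT, Cdc45 had 2.64, 2.56 and 2.69 FPKM in the irisin HFD libraries, 2.17, 2.1 and 2.35 FPKM in the GFP HFD libraries, 1.59, 1.91 and 1.6 FPKM in the irisin chow libraries and 1.62, 2.59 and 1.88 FPKM in the GFP chow libraries. Here too the call was in irisin mice (0.51 ± 0.15, adjusted p = 0.0378) and not in GFP mice (0.12 ± 0.15, adjusted p = 0.614). The difference between the vectors in the diet effect on Cdc45 was not called in either depot (0.60 ± 0.25 in iWAT, adjusted p = 0.688, and 0.40 ± 0.21 in eWAT, adjusted p = 0.908). Cdc45 overlaps Ufd1 on the other strand by 209 bases, so its reads carry the same uncertainty. Cdc6, which loads the Mcm ring, was not called in eWAT of irisin mice (0.60 ± 0.26) and was called in GFP mice (0.89 ± 0.26).

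Of the 4 genes that supply DNA building blocks, 1 (25.0%) was called in eWAT of irisin mice (Rrm1), where 17.4% of all genes were. In GFP mice 3 were called (Rrm1, Rrm2 and Tk1), against 26.5% of all genes. Rrm1 and Rrm2 encode the subunits of ribonucleotide reductase. In iWAT, Rrm2 had 3.09, 0.893 and 1.93 FPKM in the irisin HFD libraries, 5.56, 2.0 and 1.61 FPKM in the GFP HFD libraries, 1.07, 0.858 and 0.981 FPKM in the irisin chow libraries and 0.693, 1.17 and 0.852 FPKM in the GFP chow libraries. HFD and chow libraries overlapped in irisin mice, while in GFP mice every HFD library lay above the chow libraries without a call. In eWAT, Rrm2 had 3.96, 1.35 and 6.77 FPKM in the irisin HFD libraries, 7.05, 6.12 and 5.41 FPKM in the GFP HFD libraries, 1.3, 0.799 and 1.35 FPKM in the irisin chow libraries and 2.62, 1.09 and 1.14 FPKM in the GFP chow libraries. The eWAT difference of Rrm2 was 1.26 ± 0.43 in irisin mice, where library 2 on HFD met the chow range (limma adjusted p = 0.0646), and 1.73 ± 0.43 in GFP mice (adjusted p = 0.0138).

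The reductase subunit Rrm1 spanned a narrower range than Rrm2 in both depots. In iWAT, Rrm1 had 2.42, 1.79 and 2.04 FPKM in the irisin HFD libraries, 2.87, 2.47 and 1.86 FPKM in the GFP HFD libraries, 1.58, 2.13 and 1.8 FPKM in the irisin chow libraries and 1.74, 1.93 and 1.46 FPKM in the GFP chow libraries. In eWAT, Rrm1 had 3.38, 2.05 and 4.27 FPKM in the irisin HFD libraries, 4.44, 3.96 and 3.77 FPKM in the GFP HFD libraries, 1.6, 1.58 and 1.9 FPKM in the irisin chow libraries and 1.99, 2.0 and 2.37 FPKM in the GFP chow libraries. HFD and chow libraries overlapped in iWAT, where no difference was called. In eWAT the HFD libraries lay above the chow libraries of the same vector, while irisin HFD library 2 lay below GFP chow library 3. Rrm1 changed there by 0.72 ± 0.20 in irisin mice (limma adjusted p = 0.0325) and 0.80 ± 0.20 in GFP mice (adjusted p = 0.0143). The thymidine kinase Tk1 differed by 0.99 ± 0.43 in irisin mice, which was not called, and by 1.70 ± 0.43 in GFP mice, which was. Thymidylate synthase, Tyms, was not called in eWAT with either vector (0.26 ± 0.15 in irisin mice and 0.45 ± 0.15 in GFP mice, adjusted p = 0.256 and 0.0517).

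Of the G1/S regulators, 3 of 4 were called in eWAT with each vector, against 17.4% of all genes in irisin mice and 26.5% in GFP mice. Among them E2f8 met the filter only through HFD libraries. E2f1, the activator of S phase genes, was the third most abundant of the 40 genes. In iWAT, E2f1 had 6.46, 3.16 and 5.6 FPKM in the irisin HFD libraries, 4.18, 6.11 and 4.47 FPKM in the GFP HFD libraries, 4.29, 4.33 and 3.47 FPKM in the irisin chow libraries and 4.94, 4.46 and 2.38 FPKM in the GFP chow libraries. The libraries of both diets overlapped in iWAT, and no diet effect on E2f1 was called there. In eWAT, E2f1 had 8.62, 7.43 and 10.7 FPKM in the irisin HFD libraries, 11.8, 10.5 and 8.55 FPKM in the GFP HFD libraries, 3.04, 3.22 and 3.45 FPKM in the irisin chow libraries and 3.56, 3.84 and 4.12 FPKM in the GFP chow libraries. In eWAT the lowest HFD library, at 7.43 FPKM, lay well above the highest chow library, at 4.12 FPKM, and the change was nearly the same with each vector, 1.32 ± 0.15 in irisin mice (limma adjusted p = 0.00107) and 1.31 ± 0.15 in GFP mice (adjusted p = 0.000727). E2f8, a repressor of the same family, changed by 0.93 ± 0.28 in irisin mice and 1.07 ± 0.28 in GFP mice.

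Ccne1 is a cyclin E that pushes cells into S phase, and its HFD libraries lay above the chow libraries of the same vector in both depots. In iWAT, Ccne1 had 3.46, 1.38 and 2.37 FPKM in the irisin HFD libraries, 4.49, 3.27 and 2.48 FPKM in the GFP HFD libraries, 1.01, 0.87 and 1.12 FPKM in the irisin chow libraries and 1.07, 1.24 and 0.514 FPKM in the GFP chow libraries. The iWAT difference was 0.89 ± 0.30 in irisin mice (limma adjusted p = 0.0884) and 1.44 ± 0.30 in GFP mice (adjusted p = 0.0343), and the call in GFP mice was lost without the library with B cell transcripts (1.25, adjusted p = 0.0704) and without each of 7 other libraries in turn. In eWAT, Ccne1 had 2.86, 2.59 and 3.64 FPKM in the irisin HFD libraries, 2.56, 2.02 and 2.75 FPKM in the GFP HFD libraries, 1.38, 1.4 and 1.16 FPKM in the irisin chow libraries and 1.66, 1.92 and 0.584 FPKM in the GFP chow libraries. In eWAT it was 0.95 ± 0.27 in irisin mice (adjusted p = 0.0333) and 0.72 ± 0.27 in GFP mice (adjusted p = 0.0698). Its relative Ccne2 was not called in eWAT of irisin mice (0.15 ± 0.17) and was called in GFP mice (0.68 ± 0.17).

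None of the 40 genes was called between irisin and GFP in either depot on either diet. The background was also 0% of all genes tested in each of the 4 comparisons of irisin with GFP. Unadjusted p-values under 0.05 were seen for 1 gene in iWAT on HFD, 1 in iWAT on chow, 6 in eWAT on HFD and 0 in eWAT on chow, against 2.67%, 4.27%, 9.28% and 5.19% of all genes, and voom on the recovered reads called none of the 40 either. Without the 4 libraries with transcripts of other tissues none was called in these comparisons. In eWAT on HFD 38 of the 40 genes had a log2 fold change below 0, as did 51.1% of all genes, with a median of -0.44 beside -0.01 over all genes. The lowest unadjusted p were those of Mki67 (-0.95 ± 0.33), Pcna (-0.74 ± 0.26) and Top2a (-0.76 ± 0.29), each with a limma adjusted p of 0.533. Every irisin HFD library lay below every GFP HFD library for 6 genes (Pcna, Ccne2, Kif11, Cenpe, Cenpf and Mki67), against 6.76% of all genes. Cdc45 was the reverse, with every irisin HFD library above every GFP HFD library, as were 6.66% of all genes.

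The size of that difference in eWAT moved with libraries 2 and 3 of the irisin HFD group. Library 2 was the lowest of its group for 39 of the 40 genes, and library 3 was the highest for all 40. Their FPKM over the 40 genes summed to 162, 91.1 and 249 in irisin libraries 1, 2 and 3 on HFD, against 256, 218 and 207 in the GFP HFD libraries. Without library 2 the median log2 fold change of irisin over GFP was -0.08, and without library 3 it was -0.80. Array weights called 13 of the 40 genes as lower with irisin in eWAT on HFD, together with 2213 of all genes.

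In iWAT on HFD the median difference of irisin over GFP was -0.33, and without the GFP HFD library with B cell transcripts it was -0.05. The lowest p there were those of Mcm4 (-0.57 ± 0.25), Mcm5 (-0.82 ± 0.40) and Kif11 (-0.61 ± 0.33), each with a limma adjusted p of 0.946. On chow the medians were 0.08 in iWAT and -0.19 in eWAT. In eWAT on chow the irisin libraries lay below all GFP libraries for 9 genes, among them Mki67, Top2a and Cdk1, against 4.38% of all genes, and none was called. The test of whether the diet effect differed between the vectors called none of the 40 genes in iWAT or eWAT, and it called 0% and 0.00614% of all genes. An unadjusted p under 0.05 was seen for 1 of the genes in each depot, against 6.18% of all genes in iWAT and 4.04% in eWAT, and voom called none. The median of this difference, irisin less GFP, was -0.38 in iWAT and -0.22 in eWAT, and in eWAT it was 0.15 without irisin HFD library 2. With so few calls over all genes, these tests do not show that the diet effect was alike with both vectors.

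**Figure D4:**
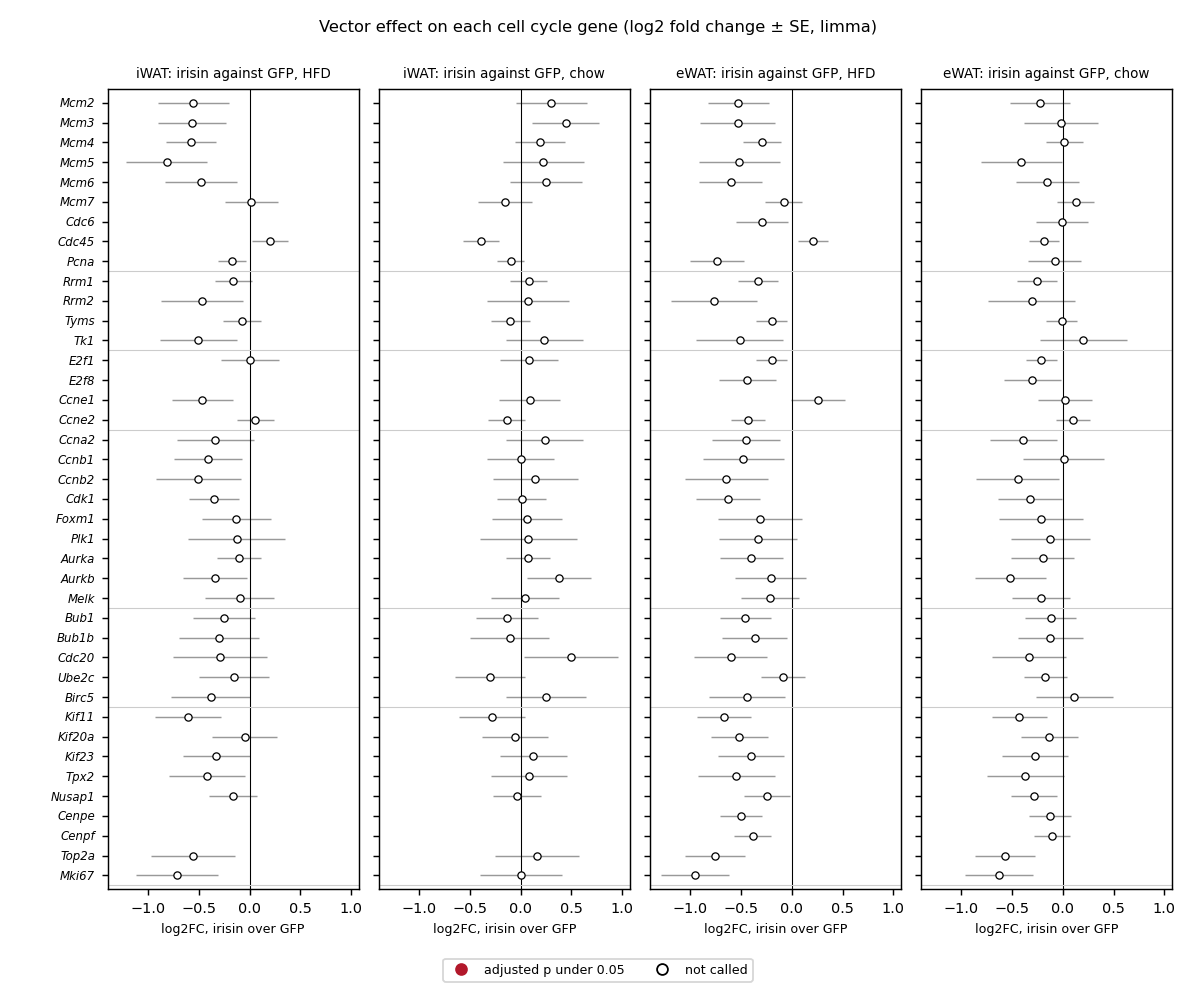
Log2 fold change of irisin over GFP for each gene (points, with the standard error as a line) in iWAT and eWAT on each diet; open points did not pass limma's test. In eWAT on HFD 38 of 40 points lie below 0 and none passed, and on chow the points scatter around 0 in iWAT.

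On HFD a minority of the cell cycle genes were called lower in iWAT than in eWAT. In the fit of all 8 groups, 8 of the 40 genes were called in irisin mice, all lower in iWAT, against 10.3% of all 17687 genes in either direction and 6.75% lower. In GFP mice 11 of 40 were called, all lower in iWAT, against 15.2% in either direction and 9.68% lower. The median log2 difference, iWAT minus eWAT, was -0.78 in irisin mice and -0.84 in GFP mice, beside 0.00 and 0.03 over all genes. An unadjusted p under 0.05 was seen for 26 of the 40 in irisin mice and 31 in GFP mice, against 25.1% and 29.7% of all genes. Pcna differed by -0.88 ± 0.21 in irisin mice (limma adjusted p = 0.0146) and by -1.44 ± 0.21 in GFP mice (adjusted p = 0.000218). Birc5, Mcm6, Bub1, Ube2c, E2f1 and Cenpe were also called with both vectors, between -0.76 for Cenpe in irisin mice and -1.33 for Birc5 in GFP mice. Cenpe, Cdc6, E2f8 and Cenpf reached 0.5 FPKM in fewer than 3 iWAT libraries, and in eWAT only in HFD libraries. They thus entered this fit through eWAT on HFD, and the calls of Cenpe are given as a description. Aurkb was called in irisin mice (-1.10 ± 0.34), and Ccnb2 (-1.33 ± 0.44), Top2a, Ccnb1 and Rrm1 in GFP mice. Cdc45 was again the reverse, with every iWAT HFD library above every eWAT HFD library of its vector, as were 10.3% of all genes in irisin mice and 15.8% in GFP mice.

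On chow none of the 40 genes was called between the depots in irisin or in GFP mice, where 4.33% and 4.63% of all genes were. An unadjusted p under 0.05 was seen for 0 and 2 of the 40, against 15.2% and 15% of all genes. Voom on the recovered reads called none on chow either. The counts on HFD moved with single libraries. In irisin mice the count was 0 without iWAT irisin HFD library 2, 3 without iWAT irisin HFD library 3, 0 without eWAT irisin HFD library 1 or 3, and 27 without eWAT irisin HFD library 2, and it was 5 without each of 14 other libraries in turn. The calls over all genes moved too, from 1819 with every library to 680 without iWAT irisin HFD library 2. They were 595, 3126 and 761 without eWAT irisin HFD libraries 1, 2 and 3. In GFP mice it was 26 without the iWAT GFP HFD library with B cell transcripts, 5 and 2 without iWAT GFP HFD libraries 2 and 3, and 4, 5 and 7 without eWAT GFP HFD libraries 1, 2 and 3. It was 22 and 18 without eWAT irisin HFD libraries 2 and 3, which shared in the estimate of the spread. Of all genes, 2695 were called in GFP mice with every library and 3713 without the iWAT library with B cell transcripts. Without iWAT GFP HFD library 3 and without eWAT GFP HFD library 1, 1583 and 1363 were called. Without the 4 libraries with transcripts of other tissues, 7 genes were called in irisin mice, with Aurkb lost, and 19 in GFP mice. In GFP mice Ccnb1 and Ccnb2 were lost and 10 others gained, among them Cdc45 as higher in iWAT (0.59, limma adjusted p = 0.0403). The shares of all genes called in that fit are not given here. The change in these counts is therefore not read as a result about these genes.

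The test of whether diet acted differently in the depots called 0 of the 40 genes in irisin mice, against 3.73% of all genes, with 7 at an unadjusted p under 0.05, as were 21.3% of all genes. In GFP mice it called 1, Pcna, against 4.31% in either direction and 2.98% lower. The diet effect on Pcna in GFP mice was smaller in iWAT than in eWAT by a log2 difference of -1.35 ± 0.30 (limma adjusted p = 0.0169). Its adjusted p was 0.0512 without iWAT GFP HFD library 3 and 0.0619 without eWAT GFP HFD library 1. In irisin mice the lowest p were those of E2f1 (-1.07 ± 0.33, adjusted p = 0.0737), Cenpe (-0.76 ± 0.28) and Pcna (-0.76 ± 0.30). Of these, Cenpe met the filter of this fit only through HFD libraries. The median over the 40 genes was -0.71 in irisin mice and -0.49 in GFP mice. Without eWAT irisin HFD library 2 the test called 8 genes in irisin mice, and 2419 of all genes, against 659 with every library. Without iWAT irisin HFD library 1 or iWAT GFP chow library 3 it called 1 in irisin mice, with 867 and 1103 of all genes. Without that chow library it called 2 in GFP mice, with 1152 of all genes, against 762 with every library.

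Further genes of the cycle, chosen by pathway with earlier results of these data known, were tested in the same fits. Of 19 other S phase genes tested in eWAT, 4 (21.1%) were called in irisin mice, near the 17.4% of all genes, and 9 (47.4%) in GFP mice, against 26.5%, all higher on HFD. Of these 19, 5 met the filter only through HFD libraries (Mcm10, Pole, Chaf1a, Chaf1b and Fen1), and of the other 14 genes 3 were called in irisin mice and 6 in GFP mice. In GFP mice they were led by Gmnn (geminin, which blocks relicensing, 1.70 ± 0.33), Cdt1, which helps load the Mcm ring (1.88 ± 0.43), Mcm10 (1.12 ± 0.27) and the chromatin assembly subunit Chaf1a (0.87 ± 0.21). Of 30 other mitotic genes in eWAT, 18 were called higher and 1 lower in irisin mice, and 25 higher and 2 lower in GFP mice (63.3% and 90.0% of the list). The 15 that met the filter on chow libraries alone held 10 of the calls in irisin mice and 13 in GFP mice. Spc25, a subunit of the Ndc80 complex at kinetochores, met the filter in eWAT only through HFD libraries. It changed by 2.62 ± 0.20 in irisin mice and 2.40 ± 0.20 in GFP mice. The condensin subunit Smc2 changed by 1.32 ± 0.22 and 1.58 ± 0.22, and the kinase Pbk by 1.79 ± 0.32 and 1.85 ± 0.32. The gene lower in irisin mice was Pttg1 (securin, -0.55 ± 0.16). In GFP mice Pttg1 (-0.62 ± 0.16) and Cks1b, which binds cyclin-dependent kinases (-0.52 ± 0.13), were lower. Pttg1 and Cks1b are named because they were the exceptions, after their values were seen.

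In iWAT, 1 of 16 other S phase genes was called in irisin mice (Gins2, 0.62 ± 0.16) and none in GFP mice, where 7 had an unadjusted p under 0.05, against 19.1% of all genes. Of 22 other mitotic genes in iWAT, 3 (13.6%) were called in irisin mice and 2 (9.09%) in GFP mice, and 10 of them met the filter only through HFD libraries, Spc25 among these. In irisin mice 9.01% of all genes were called in iWAT, so that the shares of both lists lay near the background there, and in GFP mice 2.37% of all genes were. Cks2, a subunit of Cdk1 complexes, changed by 1.59 ± 0.29 in irisin mice and 1.88 ± 0.29 in GFP mice, and Spc25 by 1.80 ± 0.44 and 2.35 ± 0.44. Anln, which shapes the cleavage furrow, changed by 0.68 ± 0.18 in irisin mice. In eWAT Cks2 changed by 1.25 ± 0.26 in irisin mice and 1.5 ± 0.26 in GFP mice, so that Cks2 was called in each depot with each vector. Spc25 was too, but it met the filter of both depots only through HFD libraries, and its calls are given as a description.

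Genes of early G1 and the brakes of the cycle moved in both directions. Of 10 D cyclins, their kinases and early G1 genes in eWAT, 1 was called in irisin mice, Cdk6 (1.18 ± 0.29), below the 17.4% of all genes. In GFP mice 4 (40%) were called, against 26.5% of all genes, Cdk6 (1.61 ± 0.29), the cyclin Ccnd1 (1.75 ± 0.41) and E2f3 (0.53 ± 0.14) higher, and the cyclin Ccnd3 (-0.74 ± 0.16) lower. Of 12 inhibitors and pocket proteins in eWAT, 4 (33.3%) were called with each vector. Cdkn1a, an inhibitor induced by the p53 protein, changed by 1.85 ± 0.29 in irisin mice and 1.03 ± 0.29 in GFP mice, and Cdkn2a by 1.39 ± 0.23 and 1.16 ± 0.23. Irisin mice also had Cdkn2b higher (0.77 ± 0.19) and Cdkn1b lower (-0.54 ± 0.13), and GFP mice the pocket protein gene Rbl1 higher (0.64 ± 0.17) and Cdkn2c lower (-1.25 ± 0.33). None of the 10 early G1 genes was called in iWAT of GFP mice, where 2 had an unadjusted p under 0.05, near the 19.1% of all genes. In iWAT Cdkn2b was called with both vectors (1.26 ± 0.21 in irisin mice and 1.10 ± 0.21 in GFP mice), and irisin mice further had Cdkn1a higher (1.81 ± 0.34), and Cdkn1c (-1.0 ± 0.23), E2f5 (-0.69 ± 0.18) and the kinase Cdk4 (-0.67 ± 0.17) lower. 

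Macrophage markers were also higher on HFD in eWAT. The 10 markers, among them Adgre1 (F4/80), Cd68 and Csf1r, summed in eWAT on HFD to 2077, 707 and 2066 FPKM in the irisin libraries and to 2421, 2370 and 1831 FPKM in the GFP libraries. On chow they summed to 599 to 645 FPKM in irisin libraries and to 555 to 713 FPKM in GFP libraries of eWAT. For 5 of the 10 in irisin mice and 9 of the 10 in GFP mice, every HFD library lay above every chow library, and no marker was at 0 in the depot. Irisin library 2 on HFD, which had the lowest sum of cell cycle genes among the eWAT HFD libraries, also had the lowest macrophage sum. The 7 markers of lipid-associated macrophages, such as Trem2 and Gpnmb, summed to 614, 129 and 1212 FPKM in irisin and to 1939, 967 and 1779 FPKM in GFP libraries of eWAT on HFD. On chow they were at 26.1 to 39.0 FPKM in irisin and 30.2 to 36.6 FPKM in GFP libraries. The 7 adipocyte markers had lower sums on HFD in GFP mice, of 4247 to 4963 FPKM on HFD against 6584 to 8398 FPKM on chow. For 6 of the 7 every GFP HFD library lay below every GFP chow library, and for 1, Lep, every HFD library lay above. In irisin library 2 on HFD the adipocyte markers summed to 11546 FPKM, against 6168 and 5015 FPKM in libraries 1 and 3. The 7 stromal progenitor markers summed in GFP mice to 325 to 438 FPKM on HFD against 486 to 612 FPKM on chow. In irisin mice these sums were 277 to 521 FPKM on HFD and 485 to 620 FPKM on chow. Sums of the 6 endothelial markers overlapped between the diets of eWAT with both vectors.

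In iWAT most macrophage markers were lower on HFD than on chow in irisin mice. They summed to 218 to 542 FPKM in irisin and 317 to 603 FPKM in GFP libraries on HFD, against 986 to 1261 FPKM in irisin libraries and 988, 973 and 175 FPKM in the GFP libraries on chow. For 8 of the 10 markers every irisin HFD library lay below every irisin chow library of iWAT. The endothelial markers summed in iWAT on HFD to 126 to 290 FPKM in irisin and 136 to 212 FPKM in GFP libraries. On chow they summed to 71.2 to 148 FPKM in irisin and 65.3 to 133 FPKM in GFP libraries. Stromal progenitor sums of iWAT on HFD were 182 to 343 FPKM in irisin and 210 to 301 FPKM in GFP libraries. On chow those sums were 749 to 1163 FPKM in irisin and 197 to 824 FPKM in GFP libraries. The part of macrophages or of other cell types in the levels of the cell cycle genes was not tested in either depot.

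**Figure D5:**
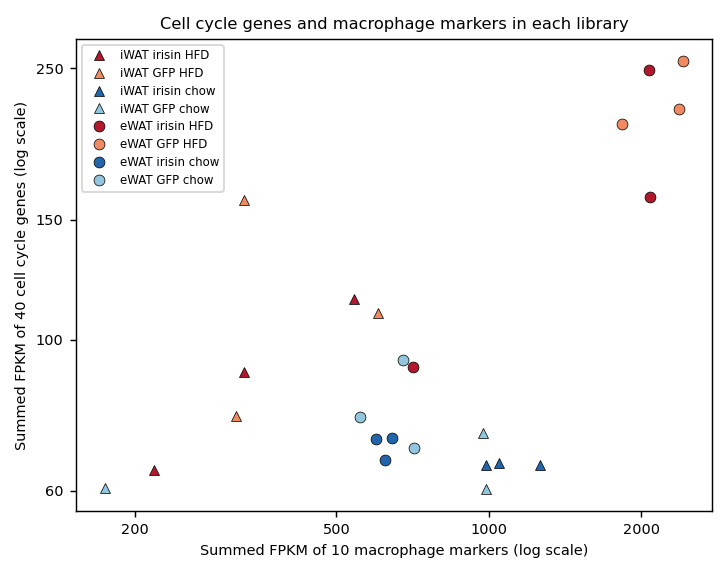
Summed FPKM of the 40 cell cycle genes against summed FPKM of 10 macrophage markers in each of the 24 libraries, both axes logarithmic; triangles are iWAT and circles are eWAT. The eWAT HFD libraries lie at the upper right except irisin library 2, at 707 and 91.1 FPKM, which lies among the chow libraries, and in iWAT the HFD libraries lie to the left of most chow libraries.

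Some values may hold reads of other genes. Of the 40 genes, 18 overlap another gene in the deposited coordinates, and for 8 of them that gene exceeded 1 FPKM in a library: Mcm7, Cdc45, Tk1 (with Afmid), Ccne2 (Ints8), Ccna2 (Exosc9), Cdc20 (Elovl1), Kif20a (Cdc23) and Nusap1 (Oip5). The partner lies on the other strand in each case, and the sources do not say which libraries kept the strand. Pseudogene copies of Pcna, Ccnb1, Ccnb2 and Tyms are listed, of which Ccnb2-ps reached 1.38 FPKM and Pcna-ps2 1.37 FPKM, so reads of these near copies may be split.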

How the data were processed

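The submitters' processing notes name HISAT2 2.0.5 and featureCounts 1.5.0-p3, and neither genome build, annotation nor strandedness is given there. Values as deposited are FPKM per gene, computed by the authors per the labels of the table, and 8 columns of the table were not used. Reads were recovered from the FPKM with a tolerance of 0.01 (100% of values came out whole), 14145644 to 19726771 per library, and the total behind the FPKM was 0.912 to 1.15 times these reads. The main test was limma 3.58.1 with a trend (R 4.3.3) on log2(FPKM + 0.5). Genes needed at least 0.5 FPKM in at least 3 libraries of the fit, which held the 4 groups of a depot, or all 8 groups for depot comparisons. The fits were also run on simulated data with few changed genes and independent noise in each gene, unlike these data. The results of those runs are not given here, and nothing is read from them. Figures used matplotlib 3.10.9 and Python 3.11.15. Members and lists were chosen with earlier results of these data known. Values per library are given for Mki67, Cdk1, Cdc45 and the 2 most abundant genes of each role; Cdk1 and Cdc45 were added after their values were seen. Statistics are given for up to 8 called genes of largest change per comparison, or the 3 with the smallest p where none passed, and for up to 4 called genes of a pathway list. Further genes are named to account for all 40.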

Additional observations from a re-analysis of the deposited data

Results flagged for a closer look

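The diet effect on Pcna in GFP mice differed between the depots by a test of the difference itself, as the log2 effect of HFD was smaller in iWAT than in eWAT by a difference of -1.35 ± 0.30 (limma adjusted p = 0.0169). Pcna was the only one of the 40 genes that passed this test, against 4.31% of all genes in either direction and 2.98% lower. The count thus lay near the background. The call was lost without iWAT GFP HFD library 3 and without eWAT GFP HFD library 1. Over the alternatives the difference for Pcna ranged from -1.61 to -1.20, and no outlying library was looked for, since each group holds 3.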

How the results depend on the processing

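Of the genes named by the rule, none changed sign under an alternative. The median over the 40 genes did in 2 cases, for irisin against GFP in iWAT on chow (0.08, and -0.0069 with quantile normalization) and for the difference of the diet effect between the vectors in eWAT (-0.22, and 0.15 without irisin HFD library 2). Some alternatives called a gene against the median of the 40, Mcm7 as lower on HFD in eWAT of irisin mice with array weights (-0.28) and Cdc45 as higher in iWAT than in eWAT, in GFP mice on HFD with upper quartile scaling (0.48), among others. Under the settings other than leaving out 1 library 166 counts stayed within 1.5 times the reported count and 24 did not. For HFD against chow in iWAT of irisin mice (3 genes called) the count was 6 with quantile normalization, 15 with array weights and 1 without the 4 libraries rich in other tissues. In iWAT of GFP mice (2 called) it was 1 without a filter, 4 with quantile normalization, 0 when only the groups compared were fitted, 17 with array weights and 1 without the 4 libraries. In eWAT of irisin mice (23 called) it was 8 when only the groups compared were fitted and 38 with array weights. For irisin against GFP in eWAT on HFD (0 called) array weights called 13. Between the depots in irisin mice on HFD (8 called) the count was 4 with a pseudocount of 0.1, 2 without a filter, 0 when only the groups compared were fitted, 25 with array weights and 4 with voom on the recovered reads. In GFP mice on HFD (11 called) it was 5 with a pseudocount of 0.1, 7 without a filter, 35 with array weights and 19 without the 4 libraries, and in GFP mice on chow (0 called) it was 2 with array weights. For the difference of the diet effect between depots, array weights called 15 in irisin mice (0 called) and 14 in GFP mice (1 called). The cause of these changes was not tested. Array weights also called many genes beyond these 40, as given above for irisin against GFP in eWAT on HFD. The shares of all genes are not given for the counts of this paragraph. Leaving out 1 library gave 1 to 5 genes in irisin and 0 to 8 in GFP mice for diet in iWAT, 11 to 36 and 22 to 36 for diet in eWAT, 0 to 27 and 2 to 26 between the depots on HFD, and 0 to 8 and 0 to 2 for the difference of the diet effect between depots. It gave 0 for each other comparison. The calls over all genes moved with the library left out as well, as given above.

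The labels do not say whether iWAT and eWAT libraries with the same number come from 1 mouse. The replicate numbers were not taken to pair the samples, as the deviations of same-numbered libraries correlated at -0.35 to 0.33 within a depot and at -0.17 to 0.36 between depots, where the highest was that of the libraries numbered 2 of the irisin HFD groups, which were the lowest of their groups for 37 of the 40 genes in iWAT and for 39 in eWAT. With the replicate block the counts were 2 in irisin and 2 in GFP mice for diet in iWAT, and 20 and 33 for diet in eWAT. Between the depots on HFD they were 10 and 17. The shares of all genes called with the block are not given here, so these counts are not read as a result about these genes. With it Ube2c was not called in iWAT of irisin mice (adjusted p = 0.0551). Depth limits the low genes most, as E2f8 rested on 2 reads in its lowest library.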
